A study of Homo sapiens with 12 samples.

Results

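Thymosins and the regulators of Rac act at different steps of actin assembly, and 10 genes of this system were followed in 2 prostate cancer cell lines on 12 expression arrays. The genes are the beta-thymosins TMSB10 and TMSB4X, the profilins PFN1 and PFN2, cofilin (CFL1), the chimaerins CHN1 and CHN2, and the small GTPases RAC1, CDC42 and RHOB. They were chosen by name with results of these data in view, and each was read from the brightest row that carries its symbol. Of the 10 genes, 9 had a named row among 17687 named genes, and CHN2 is not analysed here. Each of the 9 had a single row.

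The lines, LNCaPabl-Enza and LNCaPabl-Abi, carry the name of LNCaP, an established human prostate cancer line, and the labels do not say what Abi and Enza stand for. Cells were exposed for 24 h to dexamethasone at 100 nM, a drug that switches on the glucocorticoid receptor, or to the solvent DMSO. The 4 groups of 3 arrays are LNCaPabl-Enza with dexamethasone (Enza_Dex), LNCaPabl-Enza with DMSO (Enza_Ctrl), LNCaPabl-Abi with dexamethasone (Abi_Dex) and LNCaPabl-Abi with DMSO (Abi_Ctrl). The growth conditions on record are those of LNCaP, in medium with fetal calf serum; those of the sublines are not stated in the labels. All groups are cultures of established lines, and each line is a single model of its kind. The question posed by the series is the effect of glucocorticoid receptor signalling on expression.

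Actin cycles between single subunits and filaments. Beta-thymosins hold subunits in reserve, profilin hands them to growing filaments, and cofilin cuts and disassembles old ones. Rac1, Cdc42 and RhoB are switches that are active when bound to GTP: Rac1 drives broad sheet-like protrusions, Cdc42 thin filopodia, and RhoB acts largely on endosomes and stress fibres. Chimaerins are GTPase-activating proteins that turn Rac off when diacylglycerol recruits them to the membrane. In carcinoma cells this system sets cell shape and movement.

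Levels are deposited log2 values, so a difference of 1 is a 2-fold difference on the deposited scale, where contrasts may exceed those of the RNA itself. Enza_Ctrl replicate 2 stood apart, with a median Pearson r of 0.855 with the other arrays, against 0.986 to 0.990 for each of the other 11, and the line differences that use it are given with and without it. Leaving it out lowered the median residual SD of a gene to 0.26, against 0.43 with all 12 arrays. All groups share an estimate of spread in the fit. In treated lines and the LNCaPabl-Abi response, leaving it out therefore changes the SE and p but not the difference. Of 8 prostate epithelial markers 6 were measured. KRT8, EPCAM, CDH1 and HOXB13 averaged 12.37 to 14.38 in the groups, and KRT18 averaged 11.53 to 12.22. KLK3, which encodes prostate-specific antigen, averaged 7.46 over the 11 arrays without Enza_Ctrl replicate 2. Over the same 11 arrays the 5 immune, 4 endothelial and 5 measured fibroblast markers had median gene means of 4.58, 3.64 and 4.40, against 6.61 for all genes. The highest of these gene means, for the fibroblast marker COL1A2 (7.87) and the immune marker CD68 (7.03), lay above the median of all genes. With Enza_Ctrl replicate 2 included, the Enza_Ctrl means of PDGFRA, a fibroblast marker, and CDH5, an endothelial one, were 5.98 and 5.62. The highest value on any of the other 11 arrays was 4.95 for PDGFRA and 3.94 for CDH5. Fewer cells of a kind and less RNA per cell cannot be told apart in such bulk samples.

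The windows just upstream of the transcript starts of the 3 genes that separated the lines most among those measured, TMSB10, CHN1 and TMSB4X, are shown for context. They are 250 bases each from RefSeq (GRCh38.p14), written 5′ to 3′ on the gene's strand, with the GC box GGGCGG or its reverse complement CCGCCC in capitals. They lie at chr2:84905406-84905655 (plus strand), chr2:175005382-175005631 (minus strand) and chrX:12974860-12975109 (plus strand), in that order of genes.
TMSB10: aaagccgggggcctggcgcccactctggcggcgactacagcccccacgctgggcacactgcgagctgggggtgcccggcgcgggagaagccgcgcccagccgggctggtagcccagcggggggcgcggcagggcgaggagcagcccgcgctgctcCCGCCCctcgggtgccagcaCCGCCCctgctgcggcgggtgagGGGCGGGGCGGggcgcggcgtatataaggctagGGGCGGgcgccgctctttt
CHN1: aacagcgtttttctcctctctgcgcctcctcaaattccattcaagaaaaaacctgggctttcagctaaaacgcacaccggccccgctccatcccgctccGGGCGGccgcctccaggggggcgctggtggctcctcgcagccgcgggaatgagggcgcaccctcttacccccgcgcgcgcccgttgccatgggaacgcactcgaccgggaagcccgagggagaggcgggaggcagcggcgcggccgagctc
TMSB4X: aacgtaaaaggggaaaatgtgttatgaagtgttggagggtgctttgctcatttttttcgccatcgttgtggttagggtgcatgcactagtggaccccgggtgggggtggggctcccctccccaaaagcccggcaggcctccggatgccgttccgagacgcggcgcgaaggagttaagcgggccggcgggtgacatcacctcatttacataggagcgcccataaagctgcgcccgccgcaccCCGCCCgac
The TMSB10 window held 5 GC boxes, counting overlapping matches, and the CHN1 and TMSB4X windows 1 each; 42.6% of 35116 promoter windows of this length hold at least 1. These windows are also rich in the dinucleotide CG, with 31 copies for TMSB10, 28 for CHN1 and 21 for TMSB4X, against a median of 11. As many CG as in TMSB10 were found in 10.9% of windows, as many as in CHN1 in 15.9% and as many as in TMSB4X in 30.2%. None of the 3 windows held the TATA letters TATAAA, the glucocorticoid receptor's short element AGAACA, or its full element of 15 letters that joins AGAACA and its reverse complement across 3 free bases, on either strand. Those letters occur in 10.7%, 12.4% and 0.00285% of all windows. Only these exact letters were searched. Related ones, such as tatataag near the end of the printed TMSB10 window, were not counted, so a TATA box there is not excluded. CHN1 has 2 entries in the RefSeq table, and the outermost start was used.

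Among the monomer-holding thymosins, the lines went opposite ways: TMSB10 was far higher in LNCaPabl-Enza and TMSB4X lower. TMSB10, thymosin beta-10, had 9.52, 9.59 and 8.0 in Enza_Dex, against 5.50, 5.65 and 4.75 in Abi_Dex. With DMSO it had 9.88, 9.59 and 7.83 in Enza_Ctrl, against 5.84, 4.81 and 4.39 in Abi_Ctrl. Every LNCaPabl-Enza array lay above every LNCaPabl-Abi array, and replicate 3 was the lowest of its group in all 4 groups. The difference was 3.74 ± 0.60 (SE, limma) in treated cells, 13.4-fold higher in Enza_Dex. In untreated cells it was 4.09 ± 0.60, or 3.84 ± 0.57 without Enza_Ctrl replicate 2, which is 17.0-fold and 14.4-fold higher in Enza_Ctrl. The files hold no detection call, so TMSB10 was not shown to be above background in LNCaPabl-Abi, and these folds depend on that level.

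TMSB4X, thymosin beta-4, the sister protein that holds the main subunit reserve in many cells, had 15.40, 15.62 and 15.25 in Enza_Dex, against 16.44, 16.39 and 16.29 in Abi_Dex. The DMSO arrays gave 15.65, 14.86 and 15.47 in Enza_Ctrl, against 16.72, 16.96 and 16.02 in Abi_Ctrl. All 6 LNCaPabl-Enza arrays were below all 6 LNCaPabl-Abi arrays, and the lowest of all, at 14.86, was Enza_Ctrl replicate 2. The difference was −0.95 ± 0.29 in treated cells, 1.94-fold lower in Enza_Dex. In untreated cells it was −1.24 ± 0.29, or −1.0 ± 0.25 without Enza_Ctrl replicate 2. Processed copies of TMSB4X, TMSB10, PFN1, CFL1, RAC1 and CDC42 are annotated elsewhere in the genome, and whether array probes also read these copies was not tested.

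**Figure D1:**
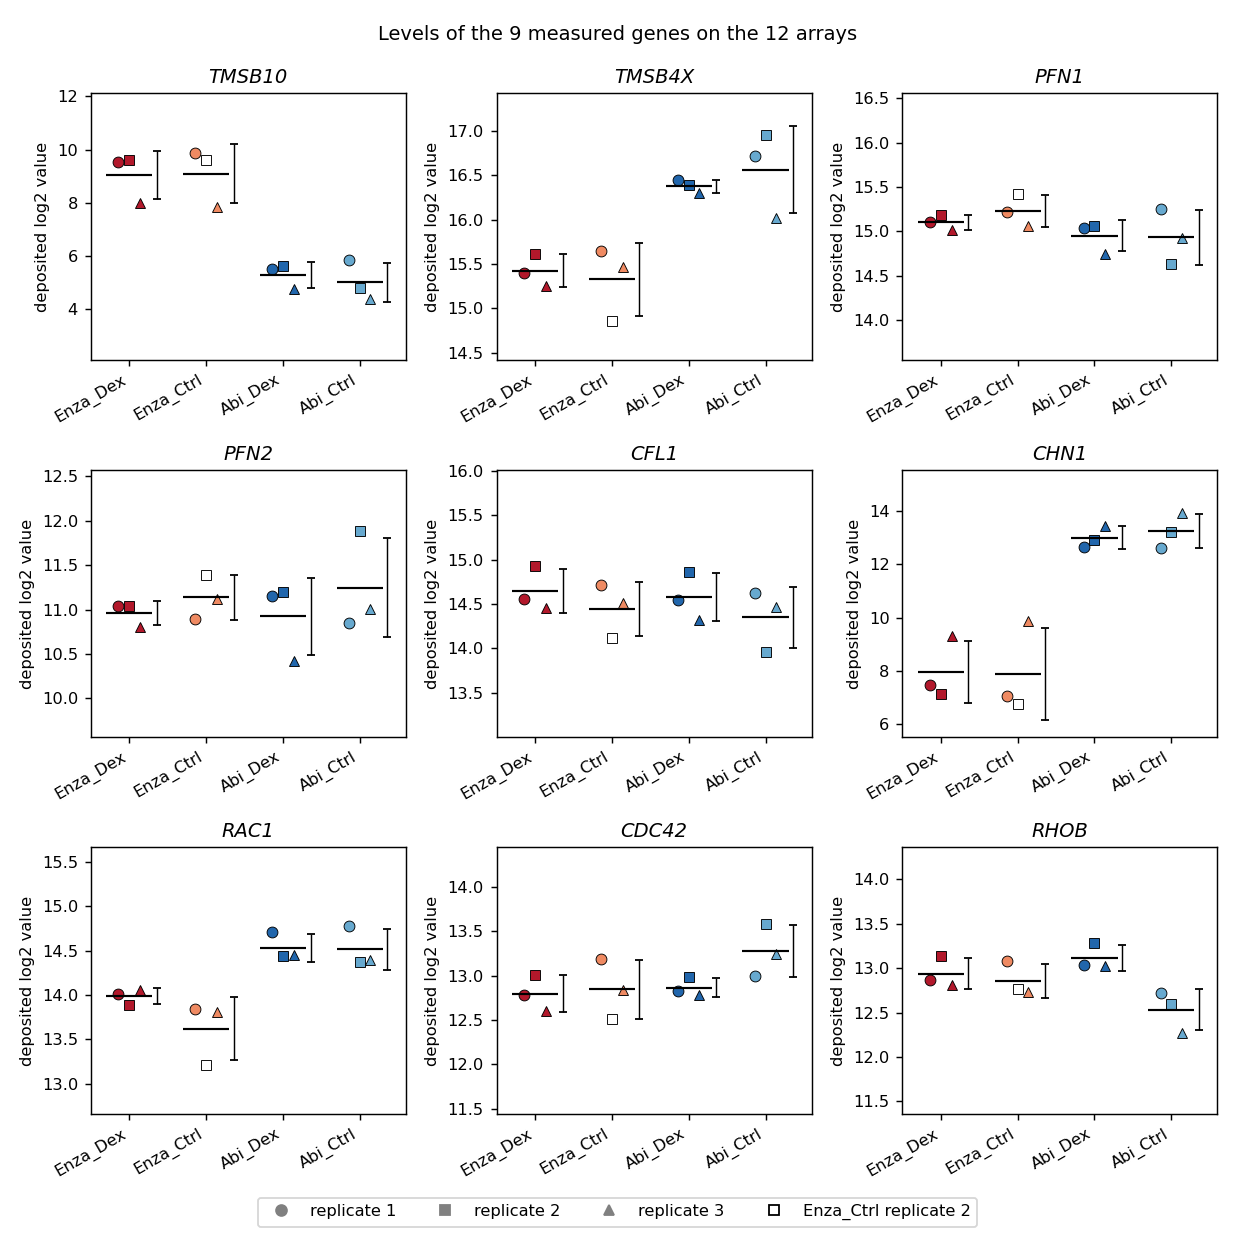
Deposited log2 values (y axis) of the 9 measured genes on the 12 arrays in the groups Enza_Dex, Enza_Ctrl, Abi_Dex and Abi_Ctrl; each point is an array, the bar is the group mean and the whisker its SD, and the open square is Enza_Ctrl replicate 2. The y range is wider for TMSB10 and CHN1. TMSB10 sits at 7.83 to 9.88 in LNCaPabl-Enza and 4.39 to 5.84 in LNCaPabl-Abi, while CHN1 sits at 6.74 to 9.87 in LNCaPabl-Enza and 12.63 to 13.93 in LNCaPabl-Abi.

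The Rac inhibitor CHN1 was the member that differed most between the lines, and it was lower in LNCaPabl-Enza. CHN1, which encodes alpha-chimaerin and is best known from neurons, had 7.48, 7.13 and 9.30 in Enza_Dex, against 12.64, 12.92 and 13.46 in Abi_Dex. It had 7.05, 6.74 and 9.87 in Enza_Ctrl, against 12.63, 13.22 and 13.93 in Abi_Ctrl. The lines did not overlap under either treatment, and replicate 3 was the highest of its group in all 4 groups. The difference was −5.04 ± 0.78 in treated cells, 32.9-fold lower in Enza_Dex. In untreated cells it was −5.37 ± 0.78, or −4.80 ± 0.69 without Enza_Ctrl replicate 2, which is 41.4-fold and 27.8-fold lower in Enza_Ctrl. By lowest difference CHN1 ranked 3 among all genes in both comparisons, and 4 in the untreated lines without that array.

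RAC1, the GTPase that chimaerins turn off, was also lower in LNCaPabl-Enza, by much less. It had 14.01, 13.89 and 14.06 in Enza_Dex, against 14.71, 14.44 and 14.44 in Abi_Dex. It had 13.84, 13.21 and 13.81 in Enza_Ctrl, against 14.78, 14.37 and 14.39 in Abi_Ctrl. The highest LNCaPabl-Enza array lay below the lowest LNCaPabl-Abi array. The difference was −0.54 ± 0.23 in treated cells and −0.89 ± 0.23 in untreated cells, or −0.69 ± 0.20 without Enza_Ctrl replicate 2, the lowest RAC1 array.

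For filament turnover, neither the profilins nor cofilin separated the lines. PFN1, the widespread profilin, had 15.11, 15.18 and 15.02 in Enza_Dex, against 15.04, 15.06 and 14.75 in Abi_Dex. It had 15.22, 15.42 and 15.06 in Enza_Ctrl, against 15.25, 14.63 and 14.93 in Abi_Ctrl. PFN2, the profilin known best from brain, ran from 10.80 to 11.39 on the LNCaPabl-Enza arrays and from 10.43 to 11.88 on the LNCaPabl-Abi arrays. CFL1 ran from 14.12 to 14.93 on the LNCaPabl-Enza arrays and from 13.96 to 14.86 on the LNCaPabl-Abi arrays. Their differences between treated lines were 0.15 ± 0.22 for PFN1, 0.038 ± 0.31 for PFN2 and 0.071 ± 0.27 for CFL1, each with its groups overlapping. In untreated lines they were 0.30 ± 0.22, −0.11 ± 0.31 and 0.10 ± 0.27 for the same genes, again with overlap, or 0.21 ± 0.21, −0.24 ± 0.30 and 0.26 ± 0.24 without Enza_Ctrl replicate 2. With all 12 arrays the 95% intervals of these 6 differences ran from −0.80 to 0.79 at their extremes, so a difference in RNA within that range is not excluded.

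The remaining GTPases, CDC42 and RHOB, lay close together in the lines. CDC42 had 12.78, 13.01 and 12.60 in Enza_Dex, against 12.83, 12.98 and 12.78 in Abi_Dex. It had 13.18, 12.52 and 12.83 in Enza_Ctrl, against 13.0003, 13.58 and 13.24 in Abi_Ctrl. The lines overlapped in both cases, with a difference of −0.071 ± 0.24 in treated and −0.43 ± 0.24 in untreated cells, or −0.27 ± 0.22 without Enza_Ctrl replicate 2. RHOB had 12.87, 13.14 and 12.81 in Enza_Dex, against 13.04, 13.28 and 13.03 in Abi_Dex, which overlap. It had 13.08, 12.76 and 12.73 in Enza_Ctrl, against 12.72, 12.60 and 12.27 in Abi_Ctrl, which do not overlap. Its difference was −0.18 ± 0.22 in treated lines, and 0.33 ± 0.22 in untreated lines (0.37 ± 0.21 without Enza_Ctrl replicate 2), with intervals that include 0.

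**Figure D2:**
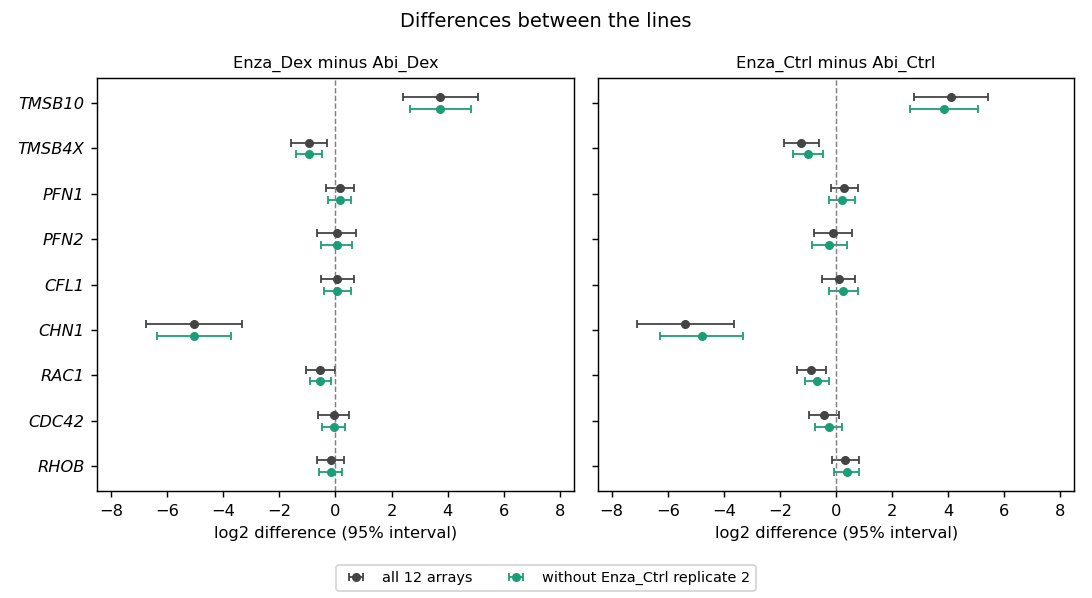
Log2 difference of each gene between the lines (x axis, LNCaPabl-Enza minus LNCaPabl-Abi) with dexamethasone (left panel) and DMSO (right panel); points are limma estimates and bars 95% intervals, in grey with all 12 arrays and in green without Enza_Ctrl replicate 2. TMSB10 lies at 3.74 and 4.09, CHN1 at −5.04 and −5.37, and the other 7 genes between −1.24 and 0.33 with all 12 arrays.

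Across the 9 genes, differences went both ways, with 4 above 0 and 5 below 0 in treated and in untreated lines, where 48.6% and 48% of all genes were above 0. The median difference was −0.071 in treated lines, against −0.0084 for all genes, and −0.11 in untreated lines, against −0.031 for all genes. Without Enza_Ctrl replicate 2 the medians in untreated lines were −0.24 for the 9 genes and −0.0022 for all genes. With a gene called at a limma adjusted p under 0.05 over all genes, 2 of the 9, TMSB10 and CHN1, were called in treated lines, where 0.277% of all genes were called, and the same 2 in untreated lines, where 0.266% were. Without Enza_Ctrl replicate 2, TMSB4X was called too in treated lines (2.28% of all genes called), and only TMSB10 and CHN1 in untreated lines (1.29%). Groups did not overlap for 4 of 9 in treated lines, against 20.1% of all genes, and for 5 of 9 in untreated lines, against 14.2%, or 24% without Enza_Ctrl replicate 2. Since the genes were chosen with the line differences in view, nothing is read from these shares and no p is given for them.

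For TMSB10 and CHN1 the size of the line differences moved with the arrays left out, while the direction held in every setting run. Both genes were chosen with the line differences in view, so the held direction is no test of them. Without Enza_Ctrl replicate 3, TMSB10 was 26.4-fold higher and CHN1 82.3-fold lower in untreated LNCaPabl-Enza, and without Enza_Dex replicate 3 CHN1 was 52.2-fold lower in treated LNCaPabl-Enza. Over all 21 settings the TMSB10 difference stayed between 3.46 and 4.26 in treated and between 3.70 and 4.87 in untreated lines. The value of 4.87 came from a fit with Enza_Ctrl replicate 1 as the only array of its group. CHN1 stayed between −5.71 and −4.62 in treated and between −6.36 and −4.80 in untreated lines.

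Within the lines too, TMSB10 and CHN1 ran largely opposite ways. In LNCaPabl-Enza, replicate 3 had the lowest TMSB10, at 8.0 with dexamethasone and 7.83 with DMSO, and the highest CHN1, at 9.30 and 9.87. Enza_Ctrl replicates 1 and 2 did not follow this, with TMSB10 at 9.88 and 9.59 and CHN1 at 7.05 and 6.745. In LNCaPabl-Abi, Abi_Ctrl replicate 1 had the highest TMSB10 (5.84) with the lowest CHN1 (12.63), and Abi_Ctrl replicate 3 the lowest TMSB10 (4.39) with the highest CHN1 (13.93). The order of the 6 LNCaPabl-Abi arrays by TMSB10 was the reverse of their order by CHN1, apart from a swap of Abi_Dex replicates 1 and 2. TMSB10 was not shown to be above background on these arrays, which limits what this order means. The labels do not say what arrays of a replicate number share. TMSB4X was lowest on replicate 3 in Enza_Dex, Abi_Dex and Abi_Ctrl. RAC1 was highest on replicate 1 in Abi_Dex, Abi_Ctrl and Enza_Ctrl and on replicate 3 in Enza_Dex.

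The replicate 3 arrays of LNCaPabl-Enza lay between the lines for some other genes as well, to a varying extent. Without them and Enza_Ctrl replicate 2, 37 genes separated the lines by more than 3 log2 units, TMSB10 and CHN1 included. With dexamethasone, replicate 3 had gone a median of 73.6% (quartiles 42.3% and 96.8%) of the distance from LNCaPabl-Abi to the LNCaPabl-Enza arrays kept. With DMSO the median was 61.4% (quartiles 42.9% and 84.6%). Of the 37 genes, 21 lay under 80% with dexamethasone and 24 with DMSO. TMSB10 stood at 63.1% and 59.4%, and CHN1 at 64.8% and 55.1%. By the same measure, with 19 genes chosen without it, replicate 1 stood at 105% with dexamethasone and 109% with DMSO. Its reference was Enza_Dex replicate 2 and both replicate 3 arrays of LNCaPabl-Enza, so replicate 1 is no separate control for replicate 3. With both LNCaPabl-Enza replicate 3 arrays left out, an omission chosen after seeing the data, the TMSB10 difference was 4.26 ± 0.44 in treated and 4.72 ± 0.44 in untreated lines. CHN1 was then −5.71 ± 0.40 in treated and −6.36 ± 0.40 in untreated lines, 52.2-fold and 82.3-fold lower in LNCaPabl-Enza. Whether replicate 3 differed in its cells or its handling was not tested.

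**Figure D3:**
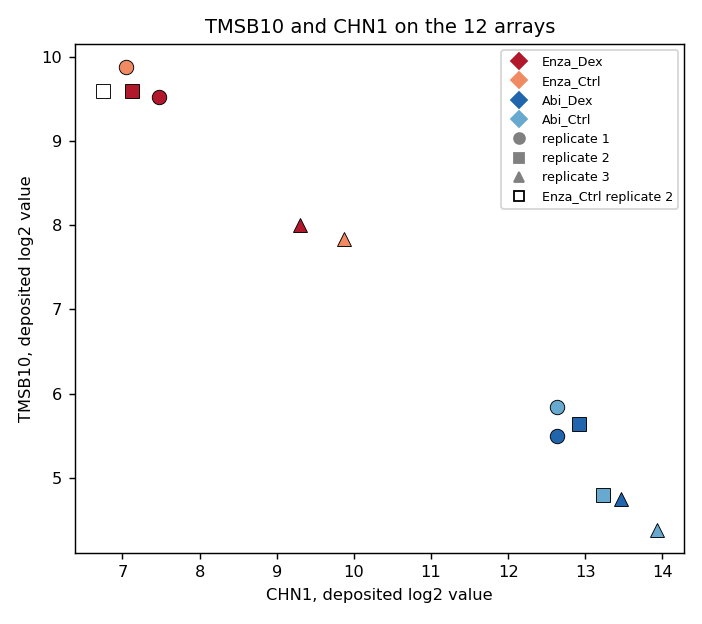
TMSB10 (y axis) against CHN1 (x axis) in deposited log2 values on the 12 arrays, coloured by group with the shape giving the replicate and the open square Enza_Ctrl replicate 2. LNCaPabl-Enza replicate 3 lies between the other arrays of its line and LNCaPabl-Abi, with CHN1 at 9.30 and 9.87 and TMSB10 at 8.0 and 7.83.

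Dexamethasone changed none of the 9 genes past the threshold in either line. In LNCaPabl-Enza, limma called 0 of 9, and 0 of 9 had an unadjusted p under 0.05, while 0% of all genes were called and 3.96% had an unadjusted p under 0.05 (3% without Enza_Ctrl replicate 2). In LNCaPabl-Abi it called 0 of 9 with 0.0283% of all genes called (0.141% without Enza_Ctrl replicate 2), and RHOB alone had an unadjusted p under 0.05, against 1.36% of all genes (7.09%). The difference between the responses was called for 0 of 9, against 0% of all genes, and 0 of 9 had an unadjusted p under 0.05, against 1.5% of all genes (3.2%). The median difference was 0.079 in LNCaPabl-Enza, against 0.057 for all genes, and −0.039 without Enza_Ctrl replicate 2, against 0.0049. In LNCaPabl-Abi it was 0.014, against 0.0023 for all genes. Each response shares its DMSO arrays with the comparison of untreated lines.

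RHOB, which is known as a GTPase whose RNA is quickly inducible, had the smallest p of the 9 in LNCaPabl-Abi. Its values, listed above, lay higher on all 3 Abi_Dex arrays (13.03 to 13.28) than on the Abi_Ctrl arrays (12.27 to 12.72). The difference was 0.58 ± 0.22, with limma adjusted p = 1.00, or 0.557 without Enza_Ctrl replicate 2. In LNCaPabl-Enza the RHOB difference was 0.079 ± 0.22 (adjusted p = 0.836) with overlapping groups, or 0.032 ± 0.21 (adjusted p = 1.00) without Enza_Ctrl replicate 2. The difference between these responses was −0.51 ± 0.31, with adjusted p = 0.793, or 0.999 without Enza_Ctrl replicate 2. CDC42 lay lower on all Abi_Dex arrays (12.78 to 12.98) than on the Abi_Ctrl arrays (13.0003 to 13.58), by −0.41 ± 0.24 (adjusted p = 1.00). RAC1 lay higher on all Enza_Dex arrays (13.89 to 14.06) than on the Enza_Ctrl arrays (13.21 to 13.84), by 0.37 ± 0.23, or 0.16 ± 0.20 without Enza_Ctrl replicate 2 (adjusted p = 0.523 and 1.00). Groups failed to overlap for 2 of 9 in LNCaPabl-Abi, where 12.3% of all genes did so, and for 1 of 9 in LNCaPabl-Enza, where 8.74% did, or 15.9% without Enza_Ctrl replicate 2.

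The 2 genes that separated the lines most had the widest intervals for dexamethasone. TMSB10 differed by −0.062 (95% interval −1.39 to 1.26) between Enza_Dex and Enza_Ctrl and by 0.29 (−1.04 to 1.61) between Abi_Dex and Abi_Ctrl. CHN1 differed by 0.079 (−1.64 to 1.80) in LNCaPabl-Enza and by −0.25 (−1.98 to 1.47) in LNCaPabl-Abi. Without Enza_Ctrl replicate 2 the LNCaPabl-Enza values were 0.18 for TMSB10 and −0.49 for CHN1, so the signs turned. With all 12 arrays and no replicate block, a change of 2-fold lay within the interval for either gene in either line. With the replicate number as a block, the SE in LNCaPabl-Abi was 0.32 for TMSB10, against 0.60, and 0.46 for CHN1, against 0.78. With the block and Enza_Ctrl replicate 2 left out, it was 0.26 for TMSB10 and 0.33 for CHN1. Without Enza_Ctrl replicate 2 and both LNCaPabl-Enza replicate 3 arrays, the CHN1 interval in LNCaPabl-Abi was −0.92 to 0.41. For PFN1 the intervals were tighter, at −0.62 to 0.36 in LNCaPabl-Enza and −0.47 to 0.50 in LNCaPabl-Abi.

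**Figure D4:**
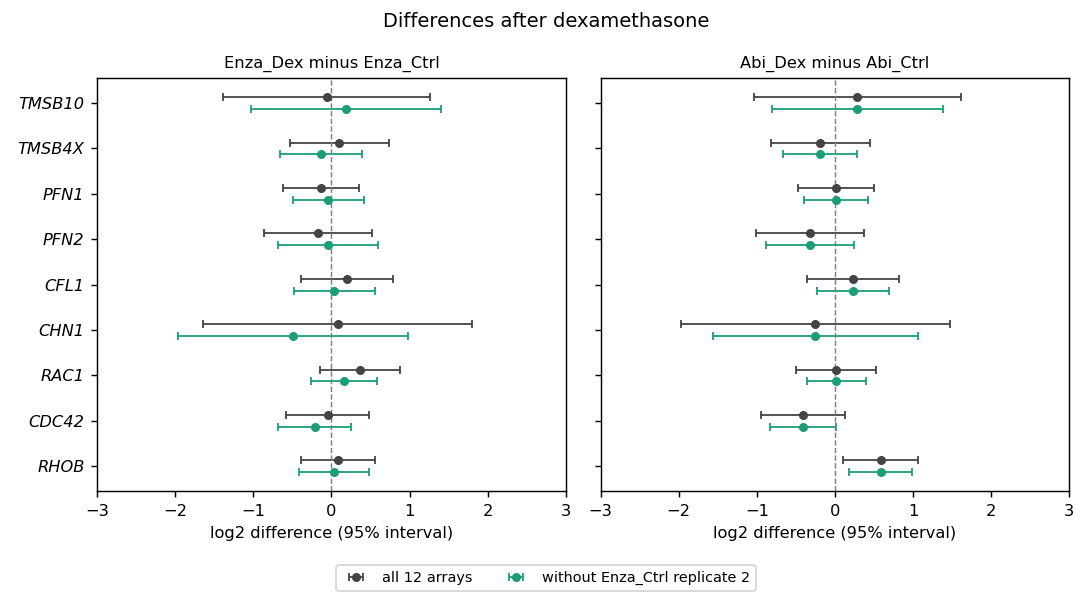
Log2 difference of each gene between dexamethasone and DMSO (x axis) in LNCaPabl-Enza (left panel) and LNCaPabl-Abi (right panel); points are limma estimates and bars 95% intervals, in grey with all 12 arrays and in green without Enza_Ctrl replicate 2. The bars cross 0 for all genes but RHOB in LNCaPabl-Abi, at 0.58, and those of TMSB10 and CHN1 are the widest.

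Beyond these genes, 9 lists of the wider actin system held 191 genes, of which 167 were measured. With all 12 arrays, limma called 0 of the 167 in any of the 5 comparisons, where 0% to 0.277% of all genes were called. At shares so low, the absence of calls says little about these genes. At an unadjusted limma p under 0.05 there were 6 in the LNCaPabl-Enza response, against 3.96% of all genes. There were 6 in the LNCaPabl-Abi response, against 1.36%, or 13 without Enza_Ctrl replicate 2, against 7.09%. In the difference between the responses there were 0, against 1.5%. In treated lines there were 10 and in untreated lines 26. The share over all genes was not counted for the line comparisons, so nothing is read from these last counts. The calls below are those of the same fit, with equal array weights, without Enza_Ctrl replicate 2. With array weights, limma also made each of them on all 12 arrays, with adjusted p from 0.00117 (DOCK10) to 0.00681 (ARPC5) in treated lines, and 0.0118 (DOCK10) and 0.0368 (ARPC5) in untreated lines.

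In treated lines without that array, 6 of the 167 genes were lower and 1 higher in LNCaPabl-Enza, which is 4.19%, against 2.28% of all genes. Enza_Ctrl replicate 2 is in neither treated group, so leaving it out changed only the shared spread and not these differences. DOCK10, an exchange factor that activates Cdc42 and Rac, had 10.18, 10.27 and 11.23 in Enza_Dex, against 12.12, 12.01 and 12.42 in Abi_Dex. The difference was −1.63 ± 0.31, with limma adjusted p = 0.0096, and replicate 3 again lay nearest to LNCaPabl-Abi. The actin nucleator COBL and the Arp2/3 subunit ARPC5 differed by −0.77 and −0.79 (both adjusted p = 0.0236). The filament-coating tropomyosins TPM1 and TPM4 differed by −1.05 (adjusted p = 0.0247) and −1.69 (adjusted p = 0.03), and RHOU by −1.30 (adjusted p = 0.0373). RDX, radixin, which ties actin to the membrane, had 12.52, 12.78 and 12.17 in Enza_Dex, against 11.42, 11.59 and 11.57 in Abi_Dex, a difference of 0.96 ± 0.21 (adjusted p = 0.0215). With all 12 arrays and equal weights the adjusted p of these 7 genes ran from 0.245 for RDX to 1.00 for ARPC5.

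By list, the calls in treated lines other than RHOU were 2 of 26 nucleators (COBL, ARPC5), 1 of 32 exchange factors, 3 of 23 capping and crosslinking genes (RDX, TPM1, TPM4) and 1 of 17 targets of the actin-sensing factor SRF (TPM1 again). By limma, 0 of 6 actins, 0 of 12 monomer-binding and severing genes, 0 of 19 GTPase-activating proteins and dissociation inhibitors, and 0 of 21 effectors were called. The smallest p values there belonged to ACTA2 (difference −0.79, adjusted p = 0.78), VIL1 (0.34, adjusted p = 0.693), ARHGAP1 (−0.67, adjusted p = 0.0912) and PKN2 (−0.60, adjusted p = 0.164).

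In untreated lines without that array, 2 of the 167 were called, both lower, which is 1.2%, against 1.29% of all genes. DOCK10 had 10.17 and 11.45 in Enza_Ctrl replicates 1 and 3, against 12.47, 12.34 and 12.62 in Abi_Ctrl, a difference of −1.67 ± 0.35 (limma adjusted p = 0.0269). ARPC5 had 12.54 and 12.71 on the same Enza_Ctrl arrays, against 13.46, 13.41 and 13.59 in Abi_Ctrl, a difference of −0.86 ± 0.19 (adjusted p = 0.0417). Enza_Ctrl replicate 2 lay lower still for both, at 9.28 and 10.77. TPM4 missed the threshold there, at −1.65 ± 0.43 (adjusted p = 0.0892). With the LNCaPabl-Enza replicate 3 arrays left out as well, Enza_Ctrl keeps only replicate 1, so differences alone are given. DOCK10 then differed by −1.96 in treated and −2.30 in untreated lines. COBL (−0.82) and TPM4 (−1.48) in treated lines and ARPC5 (−0.94) in untreated lines then lost the call.

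**Figure D5:**
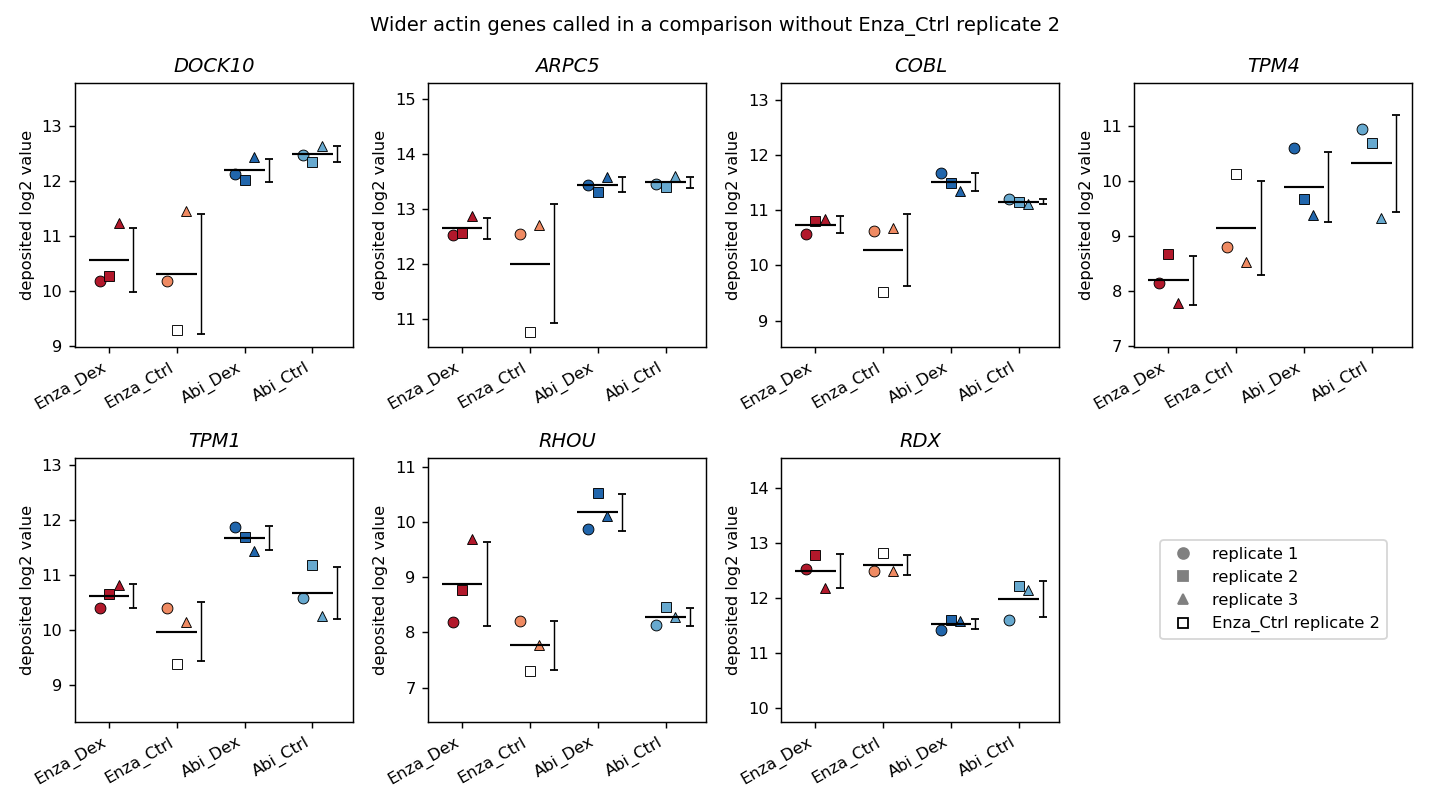
Deposited log2 values (y axis) on the 12 arrays for the 7 wider actin genes called in a comparison without Enza_Ctrl replicate 2; each point is an array, the bar is the group mean over all 3 arrays and the whisker its SD, and the open square is Enza_Ctrl replicate 2. DOCK10 lies at 11.23 and 11.45 on LNCaPabl-Enza replicate 3, nearer to LNCaPabl-Abi (12.01 to 12.62) than the other LNCaPabl-Enza arrays, and RHOU is highest in Abi_Dex.

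RHOU, an atypical Cdc42-related GTPase, was called after dexamethasone in LNCaPabl-Abi, alone among the 167 genes in the fit without Enza_Ctrl replicate 2. That is 0.599% of the 167, against 0.141% of all genes called in the same fit. It had 9.89, 10.54 and 10.11 in Abi_Dex, against 8.13, 8.46 and 8.27 in Abi_Ctrl. The rise in LNCaPabl-Abi was 1.89 ± 0.30 without Enza_Ctrl replicate 2 (limma adjusted p = 0.0163). With all 12 arrays, where 0.0283% of genes were called, the adjusted p was 0.512, against 0.00572 with array weights and 0.00521 with only the 2 groups compared. In LNCaPabl-Enza it had 8.18, 8.76 and 9.70 in Enza_Dex, against 8.21, 7.31 and 7.77 in Enza_Ctrl, overlapping at 0.89 ± 0.34 without replicate 2 of Enza_Ctrl (adjusted p = 1.00). With both LNCaPabl-Enza replicate 3 arrays left out too, that value was 0.26, with Enza_Ctrl replicate 1 as the only array of its group. The difference between these responses was −1.0 ± 0.46 (adjusted p = 0.999). The actin bundler LCP1 lay higher in Abi_Dex by 1.32 ± 0.25, and TPM1 by 0.99 ± 0.23, and neither passed the threshold (adjusted p = 0.0503 and 0.213). With array weights on all 12 arrays TPM1 passed it too (1.14, limma adjusted p = 0.0228). LCP1 was not refitted with array weights for this response. In LNCaPabl-Enza without Enza_Ctrl replicate 2, limma called 0 of the 167, with 3 at an unadjusted p under 0.05, against 3% of all genes. The difference between the responses was called for 0 of the 167 as well. There too 3 had an unadjusted p under 0.05, against 3.2% of all genes. The median over the 167 was 0.20 in that line with all 12 arrays and 0.026 without Enza_Ctrl replicate 2, against 0.057 and 0.0049 for all genes.

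The genes whose levels followed CHN1 and TMSB10 most closely were sought over the 11 arrays without Enza_Ctrl replicate 2. The 5 nearest to CHN1 were ARID5B (Pearson r = 0.986), COBLL1 (0.984), DOCK10 (0.984), IGFBP2 (0.979) and EFNA5 (0.979). EFNA5, an ephrin ligand, had 6.72, 4.84 and 7.23 in Enza_Dex, against 11.19, 11.77 and 11.61 in Abi_Dex. The 5 nearest to TMSB10 were UGT2B7 (0.974), ACSL1 (0.962), F3 (0.961), FOXN4 (0.960) and ELOVL7 (0.958). F3, tissue factor, had 7.33, 6.52 and 5.23 in Enza_Dex, against 3.76, 3.59 and 3.35 in Abi_Dex. These correlations are descriptions over n = 11 arrays that fall into the lines, so any gene that separates the lines as strongly will score high.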

How the data were processed

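Total RNA from the 2 lines was hybridized, biotin-labelled with the WT PLUS kit, to 12 single-colour Affymetrix arrays, per the labels' protocols. For each array and transcript cluster a log2 value was deposited by the authors; values span 1.66 to 18.6, wide for RMA alone. Affymetrix Expression Console, RMA and limma are named, without versions, per the submitters' processing notes; build and summarisation options: not given in the sources used here. Of 24351 rows, 17709 had 1 gene symbol in the platform's annotation, 0 had several and 6642 had none. The brightest row of each of 20 repeated symbols was kept, which left 17687 genes.

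Groups and replicate numbers came from the array titles. Separate cultures are not stated for the replicates; p-values therefore reflect array-to-array spread that may be technical. No 2 arrays were identical (highest Pearson r 0.996). These files hold no depth, and the number of arrays limits the precision. All 12 arrays entered a fit of 4 group means without a filter (limma 3.58.1, R 4.3.3, functions lmFit and eBayes), with Benjamini-Hochberg adjustment over all genes and a call at an adjusted p under 0.05. Intervals are 95%. The comparisons were Enza_Dex against Enza_Ctrl, Abi_Dex against Abi_Ctrl, the difference between these responses, and LNCaPabl-Enza against LNCaPabl-Abi with dexamethasone and with DMSO. Simulated data with 200 changed genes served to test the fit.

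The members, lists and tests were chosen with earlier results of these data known, and the line differences of the members are a description. All members are named, with up to 4 called genes a list and direction or else the gene with the smallest p; from these last a selection is printed, and the count of 1 list is not reported here. The 5 genes most like each of the 2 members with the widest range of group means are named too. Promoter windows came from RefSeq (GRCh38.p14). Alternatives left out each array, added the replicate number as a block, normalized by quantiles anew, left out the dimmest 25% of genes, used array weights (statmod 1.5.0) or fitted only the 2 groups compared. The leaving out of both LNCaPabl-Enza replicate 3 arrays, alone and with Enza_Ctrl replicate 2, was chosen after seeing the data. With all of these left out, Enza_Ctrl keeps only replicate 1 and has no spread of its own.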

Additional observations from a re-analysis of the deposited data

How the results depend on the processing

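Of the 9 genes, 0 were called in either dexamethasone response or in their difference under any of the alternatives run. In treated lines the number called was 2, and 0 to 3 with 1 array left out, 1 after quantile normalization anew, and 3 with array weights or with only the 2 groups compared. In untreated lines it was 2, and 0 to 2 with 1 array left out and 0 with only the 2 groups compared; the cause was not tested, but a fit to 2 groups rests on 6 arrays, Enza_Ctrl replicate 2 among them. Over all genes, the count called in treated lines was 49 and ran from 12 to 767, that in untreated lines 47 and ran from 0 to 303, and that in the LNCaPabl-Abi response 5 and ran from 0 to 39. The LNCaPabl-Enza response and the difference between the responses had 0, or 0 to 1. With the replicate number as a block, 2 of the 9 genes were called in treated and 2 in untreated lines, and with the block and Enza_Ctrl replicate 2 left out 3 and 2. The 9 genes were chosen with the line differences in view, so their counts in the line comparisons are a description and no test. The numbers were not taken to pair the arrays, since not every pair's deviations correlated above 0.1: they did so at 0.0040 to 0.30 over 6 pairs, and at 0.060 to 0.30 over the 5 pairs without Enza_Ctrl replicate 2. As a hint from the data, 8 of 12 arrays correlated best with their own number.

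No called direction turned, but uncalled dexamethasone differences near 0 changed sign, and the cause was not tested. With 1 array left out, the LNCaPabl-Enza response ran from −0.70 to 0.46 for TMSB10, −0.59 to 1.07 for CHN1, −0.21 to 0.12 for CDC42, −0.14 to 0.26 for TMSB4X and −0.021 to 0.19 for RHOB. The LNCaPabl-Abi response ran from −0.46 to 0.010 for TMSB4X, −0.14 to 0.17 for PFN1, −0.072 to 0.15 for RAC1, −0.024 to 0.70 for TMSB10 and −0.57 to 0.080 for CHN1. The difference between the responses ran from −0.30 to 0.0070 for PFN1, −0.17 to 0.34 for PFN2, −0.19 to 0.17 for CFL1, −0.33 to 1.32 for CHN1 and −0.98 to 0.17 for TMSB10. Array weights gave −0.053 for PFN1 and −0.025 for RAC1 in LNCaPabl-Abi, and 0.13 for TMSB10, −0.14 for TMSB4X and −0.39 for CHN1 in LNCaPabl-Enza. They gave differences between the responses of −0.029 for TMSB4X, 0.0036 for PFN1 and −0.13 for CHN1. The block without Enza_Ctrl replicate 2 gave LNCaPabl-Enza responses of 0.068 for TMSB10, −0.24 for TMSB4X, −0.33 for CHN1 and −0.041 for RHOB, and differences between the responses of −0.050 for TMSB4X and −0.079 for CHN1. Quantile normalization gave LNCaPabl-Enza responses of −0.0093 for TMSB4X, −0.11 for CHN1 and −0.14 for RHOB, and differences between the responses of −0.16 for PFN2 and −0.043 for ACTA1. Without both LNCaPabl-Enza replicate 3 arrays, CDC42 was 0.043 in LNCaPabl-Enza and the difference for CFL1 was 0.10. Without these and Enza_Ctrl replicate 2, which leaves only Enza_Ctrl replicate 1, the LNCaPabl-Enza responses were −0.14 for TMSB4X, 0.15 for PFN2 and −0.078 for RHOB.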
